A study of Mus musculus with 22 samples.

Results

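Embryonic stem cells transcribe a set of genes that fibroblasts keep off, and reprogramming with defined factors turns many of them on within days. The genes described here are those that were high in mouse embryonic stem cells (mESC), low in mouse embryonic fibroblasts (MEF), and still low at the last day of both reprogramming courses. They were chosen on the series table, a deposited table of 12897 genes whose columns share 1 median and 1 maximum, which is the form of quantile-normalized scores. The rule asked for a score of at least 1000 in mESC, at most 1/16 of the mESC score in MEF, and at most 1/8 of it in OvSvK day 4 and in OSK day 7. Of the 12897 genes, 140 met the mESC and MEF limits, and 46 of these stayed at or under 1/8 at both end points. Another 93 were past that limit at 1 or both end points, and 1 that met every limit was left out by name. The rule leaves out by name the Dppa, Lefty, Krt, Cldn and Klf families and 11 single genes, so it does not describe every late stem cell gene. This removed only that 1 gene, and Nanog and Esrrb, though among the 11, were past the limit in any case.

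The 20 reprogramming libraries came from OG2 transgenic MEFs at passage P2, of a mixed 129SVJ, C57B6 and CBA strain, sampled after 2 days of transfection. OvSvK denotes Oct4-VP16, Sox2-VP16 and Klf4 (days 0 to 4), VP16 being a viral activation domain, and OSK denotes Oct4, Sox2 and Klf4 (days 0, 1, 3, 5 and 7). GFP, with no reprogramming factor, is the control (days 1, 3, 5 and 7), and OSK was also run in medium without bFGF, without vitamin C, or without the GSK3 inhibitors CHIR-99021 and LiCl (days 3 and 7). The mESC were OG2 cells labelled P5, and the untransfected MEF were OG2 cells labelled P2; the CBA part of the strain is written 1/11 for them and 1/8 for the other samples. Every arm and day was 1 library (n = 1 throughout), so errors below measure how a difference varied between days or departed from a line, and they are not the spread between replicates. Both mESC and MEF are marked as re-analysed data and were quantified with RSEM 1.1.21 on mm9, against RSEM 1.2.4 on mm10 for the 20 libraries, per the submitters' processing notes. In every share of the mESC value, cell type and this difference in processing therefore cannot be told apart.

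Pluripotent cells hold their identity through a core network of transcription factors, and also transcribe genes better known from oocytes, germ cells and the early embryo. Many germ line genes are kept off in somatic cells by DNA methylation of their promoters. KRAB zinc finger genes, which lie in large and recently duplicated clusters in the mouse, encode repressors of transposable elements and are prominent in early embryos.

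The members were not all silent at the end points. Their median level was 5.19% of mESC in OvSvK day 4 and 3.43% in OSK day 7, against 0.737% in MEF. TPM (a level scaled by transcript length and library total) was at least 1 for 42 members in OvSvK day 4 and for 39 in OSK day 7, and only Galnt6, Tuba3a, Xlr3c and Rps2-ps13 were under 1 at both. The members are therefore better described as low relative to mESC. In bulk RNA, fewer cells expressing a gene and less RNA per cell cannot be told apart. The members just inside the limit were Gpr56, Camk2b, A230004M16Rik, Bend4 and Gldc, whose higher end point was 10.2%, 10.5%, 10.9%, 11.5% and 11.6% of mESC. Just outside lay 5730507C01Rik (12.7%), Fgf4 (12.7%), Arl14epl (12.7%), Lefty2 (12.8%) and Rnf17 (13.6%), so the limit cuts through a continuous range.

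Depth and library quality bear on every low value here. Libraries held 7872278 to 20720724 expected counts, so the limit that a count of 0 allows (3 counts) lay under 1 CPM (counts scaled to the library total). OSK day 0 stood apart, with a TMM scaling factor of 0.665 against 0.854 or more elsewhere, and an uneven recovery by transcript GC content. With all genes in 5 groups by GC, the median deviation of the lowest GC group from the mean of all libraries, less that of the highest, was -2.86 log2 units there, -1.36 in GFP day 1, and between -0.72 and 0.81 in the other 18. The libraries also fell into 2 sets by the share of counts at Rpsa and Rpsa-ps10 that went to the pseudogene, 3.32% to 7.78% in OSK days 1 to 7 and GFP and 0.125% to 0.478% in the rest. All 9 stem cell markers, Nanog and Pou5f1 among them, had at least 10 counts at both end points and none did in any GFP library, while all 8 fibroblast markers were present in every library. Pou5f1 encodes Oct4, a transfected factor, and already stood at 1104 TPM on OvSvK day 0 and 96.1 on OSK day 0. Its delivered RNA and the cells' own cannot be told apart here.

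**Figure D1:**
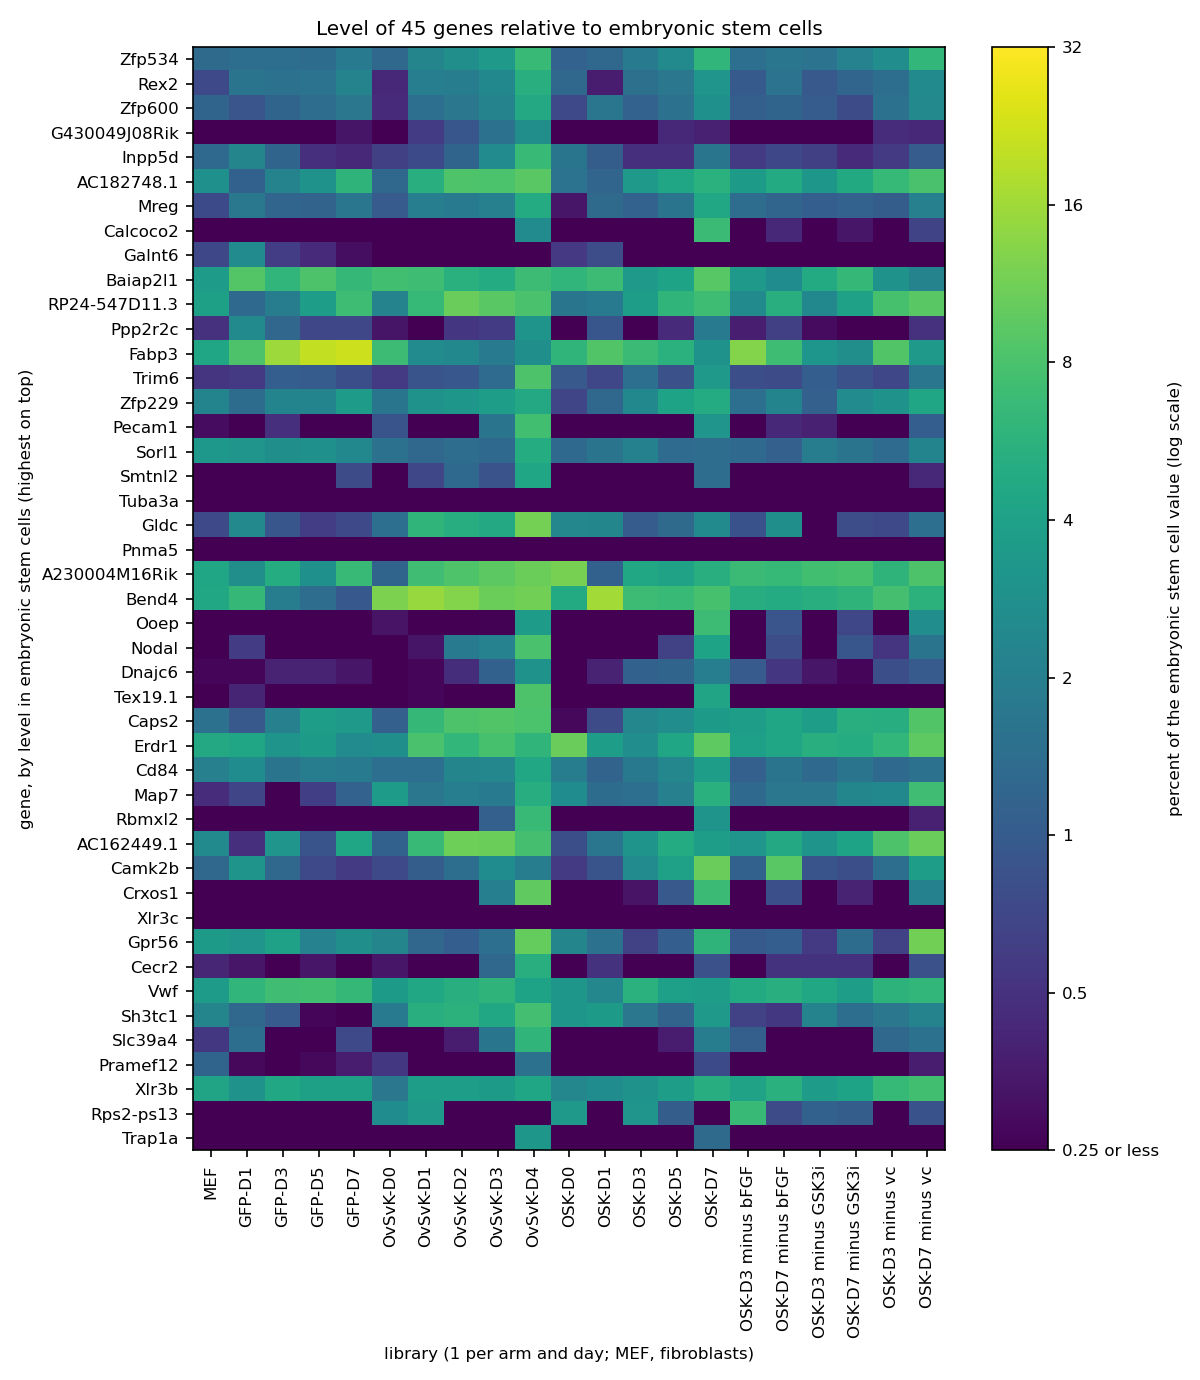
Score of 45 of the genes (rows, ordered by mESC score) as a percent of its mESC score, on a log colour scale, in MEF and 20 libraries (columns, 1 per arm and day). Rows such as Calcoco2, Ooep, Tex19.1 and Trap1a are brightest in OvSvK day 4 and OSK day 7, while Fabp3 (GFP) and Bend4 (early factor libraries) are brightest elsewhere. Ooep also reaches 2.70% in OSK day 7 without vitamin C.

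In OvSvK and OSK the members' median share of the mESC score stayed at or under 1.94% until the last interval and was higher after it. Their median TPM climbed more evenly in OvSvK, at 0.39, 1.325, 2.335, 3.595 and 8.23 on days 0 to 4. In OSK that TPM was 0.25, 0.61, 0.935, 1.37 and 3.935 on days 0, 1, 3, 5 and 7, against 0.305 to 0.815 in GFP. For Zfp534 the score spanned a narrower range than TPM, from 244 to 1248 against 4.24 to 90.5 over the OvSvK days. In OvSvK their median share of mESC was 0.801%, 1.25%, 1.44%, 1.94% and 5.19% on days 0 to 4. In OSK it was 0.713%, 0.901%, 1.14%, 1.12% and 3.43% on days 0, 1, 3, 5 and 7, and in GFP 1.196%, 1.03%, 0.614% and 0.729%. On day 7 it was 0.856% without bFGF, 1.88% without vitamin C and 0.825% without GSK3 inhibitors. The 93 genes past the limit had already reached 14.6% on OvSvK day 3 and 13.5% on OSK day 5. From OvSvK day 3 to day 4, 23 of the 42 members with TPM of at least 1 on either day were at least 2-fold higher, against 5.38% of all genes. From OSK day 5 to day 7 it was 24 of 40, against 7.06% of all genes. From GFP day 5 to day 7 it was 5 of 21, against 3.79% of all genes, so a smaller count of members was also higher over the last control interval. Among the genes past the limit it was 40 of 92, 39 of 91 and, in GFP, 2 of 49. These are descriptions without a test, since the end point libraries chose the members and each ratio rests on 2 libraries.

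**Figure D2:**
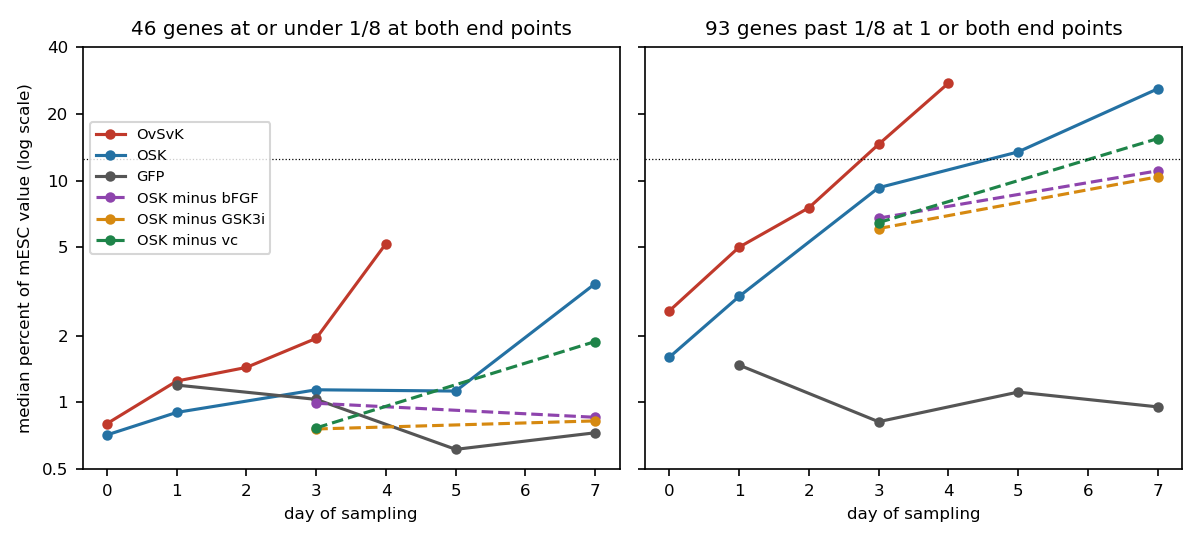
Median percent of the mESC score (log axis) by day and arm, for the 46 members on the left and the 93 stem cell genes past the limit on the right; the dotted line is 1/8 of mESC. The members reach 5.19% in OvSvK and 3.43% in OSK, and most of that comes between the last 2 sampled days.

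Several genes of the oocyte and germ line showed a late step in both courses. Ooep, a subunit of the oocyte's subcortical maternal complex (mm10 chromosome 9, 78376109 to 78378725), stood at 0.25, 0.06, 0.00, 0.55 and 8.20 TPM over OvSvK days 0 to 4 and at 0.09, 0.12, 0.13, 0.13 and 11.9 TPM over the 5 OSK days. Its counts went from 6 to 74 over the last interval of OvSvK and from 2 to 174 in OSK, and GFP held at most 0.13 TPM. Both end points thus lay far above every earlier day. Tex19.1, which restrains transposable elements in germ and pluripotent cells (chromosome 11, 121146143 to 121148319), went from 5 to 73 counts in OvSvK and from 3 to 53 in OSK, with at most 0.28 TPM in GFP. Trap1a, an X-linked gene known as a tumour antigen, had 0 counts on OvSvK day 3 and 41 on day 4, and 0 on OSK day 5 and 17 on day 7. A count of 0 allows up to 0.235 and 0.172 CPM there. The RNA-binding protein gene Rbmxl2, which is active in male germ cells, went from 13 to 56 and from 1 to 35 counts.

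The Xlr3 genes did not show that step. Xlr3b, of an X-linked family transcribed in meiotic cells, stood at 1.45 to 7.70 TPM in OvSvK, 1.23 to 7.93 in OSK and 2.52 to 5.07 in GFP, so its arms overlapped. Its neighbour Xlr3c never exceeded 4 counts in any library. Of the Xlr3c transcript sequence, 72.1% of 50-base runs also occur in other genes, 66.2% in Xlr3b, so reads may have been divided between them. Pramef12, of the PRAME family, was low but late, and reached 2.30 TPM on OvSvK day 4 and 1.28 on OSK day 7, and was at most 0.49 elsewhere. The wider list of 70 germ line genes, of which 37 are in the series table, holds 4 members (Ooep, Tex19.1, Xlr3b and Trap1a) and 2 of the genes past the limit. A list of 10 germ line markers summed to 22.02 TPM on OvSvK day 4 and 13.1 on OSK day 7. In the other 18 libraries these markers summed to 0.61 to 7.02 TPM. At the end points 3 and 2 of the 10 had at least 10 counts, and 2 already did on OSK days 3 and 5. Their part in the values above was not tested.

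Calcoco2, an autophagy receptor gene (chromosome 11, 96099326 to 96111964), had 1.34 TPM on OvSvK day 3 and 16.5 on day 4. It was the only member on a list of 40 genes of the 2-cell embryo, of which only 5 are in the series table. In OSK it had 0.10, 0.81, 0.90, 0.88 and 28.4 TPM over the 5 days. Its day 7 level without bFGF, vitamin C or GSK3 inhibitors was 2.08, 4.12 and 1.94 TPM, and GFP held 0.00 to 1.27. Of 8 markers of 2-cell-like cells 6 were found, and they summed to 0.00 TPM on OvSvK day 4 and 0.23 on OSK day 7. Their highest sum was 15.3 TPM, on OvSvK day 1, where Calcoco2 had 1.17. The part of such cells in the values of Calcoco2 was not tested.

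**Figure D3:**
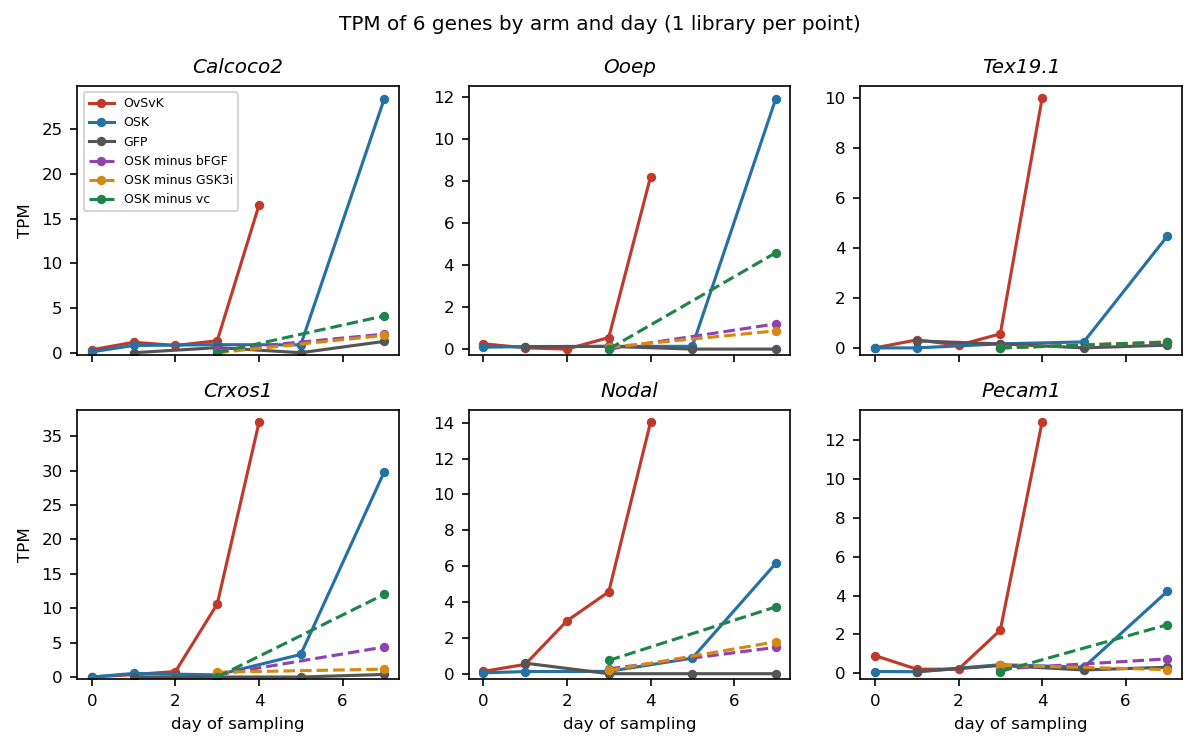
TPM of Calcoco2, Ooep, Tex19.1, Crxos1, Nodal and Pecam1 (1 panel each) by day of sampling, with 1 library per point and lines joining the libraries of an arm. Each is highest in OvSvK day 4 or OSK day 7, and the OSK libraries without vitamin C reach at most 12.02 TPM.

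Among ligands and receptors, Nodal and Pecam1 were also highest at the end points. Nodal, a TGF-beta family ligand that patterns the early embryo (chromosome 10, 61417972 to 61425338), had 0.13, 0.52, 2.95, 4.57 and 14.0 TPM in OvSvK and 0.05, 0.12, 0.13, 0.87 and 6.16 TPM in OSK. In GFP it had 0.59 TPM on day 1 and 0 counts on the later days. OvSvK reached on day 2 a level that OSK passed only after day 5. Pecam1, an adhesion receptor of endothelium that also marks naive stem cells, went from 37 to 180 counts over the last day of OvSvK and from 6 to 95 in OSK.

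Pecam1, Vwf, Cd84 and Inpp5d are best known from blood and vessels, so the markers of those cells matter here. Cdh5, the defining endothelial cadherin, stayed at 0.02 to 3.23 TPM and was highest in GFP. Within OvSvK it went from 0.07 on day 0 to 1.47 on day 4. Kdr, another endothelial marker, stood at 3.19, 20.4, 26.8, 15.1 and 10.7 TPM over the OvSvK days. It ran from 1.02 to 7.82 in OSK and from 2.57 to 4.17 in GFP. Ptprc, the pan-leukocyte antigen, had 0 to 16 counts. The 4 endothelial markers, Pecam1 among them, summed to 5.96 to 8.19 TPM in GFP and OSK day 0 and to 36.5 to 111 in the other libraries, where Tek made up most of it. Vwf, a clotting protein, ran from 1.57 to 6.20 TPM in OvSvK, 1.01 to 3.96 in OSK and 1.58 to 3.00 in GFP, and its arms overlapped. The immune receptor gene Cd84 ended at 6.90 TPM in OvSvK and 5.49 in OSK, against 1.69 in GFP. Inpp5d, the lipid phosphatase SHIP1, of which stem cells make a short form, had 0.55, 0.86, 2.12, 7.44 and 14.9 TPM in OvSvK. In OSK it had 1.32, 1.44, 0.70, 0.72 and 3.09 TPM. OvSvK was below OSK on days 0 and 1 and above it on day 3, the last day on which both were sampled. The 4 macrophage markers found, of 5, summed to 150 TPM in OSK day 0, the highest of all libraries, and to 13.4 TPM on OvSvK day 3. Their part in the early Inpp5d values of OSK was not tested.

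The remaining signalling members were low, and most were highest late. Gpr56, an adhesion receptor, reached 8.26 TPM on OvSvK day 4, 3.87 on OSK day 7 and 8.32 on day 7 without vitamin C, and was at most 1.88 elsewhere. Camk2b, a calcium-dependent kinase, was higher in OSK day 7 (6.81 TPM) than in OvSvK day 4 (2.48), the reverse of most members, and highest on day 7 without bFGF (7.88). Ppp2r2c, a phosphatase subunit, ended at 6.84 and 3.52 TPM. The sorting receptor Sorl1 stood at 2.62 TPM on OvSvK day 4 and 0.47 on OSK day 7, and its highest TPM was 3.65 in GFP day 1. Its GFP counts were 30 to 35 while its GFP TPM ran from 0.76 to 3.65. By score it was higher on OvSvK day 4 (100) than in GFP day 1 (62), so the measures differ on its highest library.

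Some genes of metabolism were higher outside the end points. Fabp3, a fatty acid carrier, was highest in the control. Its level was 42.8, 74.2, 87.2 and 99.6 TPM over the GFP days, up to 22.3% of mESC, against 11.9 to 32.8 in OvSvK and 17.7 to 42.0 in OSK. Gldc, the glycine cleavage enzyme long linked to pluripotent metabolism, stood at 0.84, 5.36, 5.80, 5.95 and 12.7 TPM in OvSvK but at most 2.89 in OSK. The zinc transporter gene Slc39a4 ended at 4.79 and 1.18 TPM. Galnt6, which starts O-linked sugar chains on proteins, had 9 and 3 counts at the end points and 41 in GFP day 1, its highest.

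Members with roles in cytoskeleton and vesicles covered the whole range. Tuba3a, an alpha-tubulin of the testis, had at most 2 counts in 19 libraries and 2.07 in OSK day 0, and Pnma5 had at most 10. Baiap2l1, an actin regulator, showed little of the pattern, with 18.5 and 17.8 TPM at the end points and 8.98 to 14.4 in GFP. Mreg, a melanosome transport protein, ended at 16.3 and 13.3 TPM against 1.66 to 3.01 in GFP. Smtnl2, Dnajc6, Sh3tc1, Map7 and Caps2 ended at 7.87, 3.55, 4.93, 5.41 and 16.2 TPM in OvSvK and at 2.06, 1.91, 2.21, 4.54 and 8.26 in OSK. Erdr1, on the part of chromosome Y shared with X, stood at 33.4 and 47.4 TPM, and already at 29.8 on OvSvK day 1.

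The nuclear factors include the highest stem cell scores of all members. Zfp534, Rex2 and Zfp600 are KRAB zinc finger genes on chromosome 4, at 147673502 to 147702553, 147021850 to 147060794 and 146156824 to 146158927 (mm10), with mESC scores of 18777, 8424 and 8053. Zfp534 had 4.24, 27.5, 34.2, 45.6 and 90.5 TPM in OvSvK and 0.68, 3.94, 14.5, 29.6 and 80.0 in OSK, which are the highest end point levels among the members. GFP rose too, with 1.87, 5.79, 7.98 and 13.9 TPM. Of 50-base runs in their transcripts, 68.4% (Zfp534), 89.1% (Rex2) and 81.2% (Zfp600) occur in other genes, so their single values depend on how reads were divided. Counts summed over Rex2, Zfp600 and Zfp979, which share sequence, went from 11.9 to 103 CPM over the OvSvK days. In OSK the sum went from 3.61 on day 1 to 80.0 on day 7, and in GFP from 2.18 to 36.6. Zfp980 and Zfp981 share 53.9% and 21.7% of Rex2 runs, more than Zfp979 (15.2%), but were not among the counted genes. The sum therefore covers only part of the family.

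The homeobox gene Crxos1 (chromosome 7, 15882617 to 15900293) had 0.00, 0.35, 0.80, 10.6 and 37.0 TPM in OvSvK, and 3.28 on day 5 and 29.8 on day 7 of OSK. GFP held 0 counts on 3 days and 1 on day 7. Bend4, a BEN domain gene, was early instead, at 4.19 to 6.19 TPM on all OvSvK days and 6.69 on OSK day 1, or 16.2% of mESC, while GFP fell from 1.88 to 0.17. Cecr2, a bromodomain remodelling protein, reached 3.93 TPM on OvSvK day 4 and 0.19 on OSK day 7. The ubiquitin ligase gene Trim6 went from 3.45 to 18.5 TPM and from 2.16 to 7.68 TPM over the last intervals, and Zfp229 ended at 7.85 and 8.61 TPM.

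Of the 46 members, 6 are not protein coding in GENCODE vM21, against 0 of the 93 genes past the limit. AC182748.1 and RP24-547D11.3 were among the most abundant members, with 60.5 and 61.1 TPM on OvSvK day 4 and 36.9 and 54.6 on OSK day 7, and also rose in GFP, from 1.84 to 27.3 and from 3.70 to 41.3 TPM. Counts summed over AC182748.1 and genes sharing its sequence stood at 191.8 CPM on OvSvK day 4 and 188.2 on OSK day 7, below 258.8 in GFP day 7. A230004M16Rik and AC162449.1 reached 6.36 and 7.65 TPM at most in the OvSvK days. G430049J08Rik had 13.9 TPM on OvSvK day 4 and 2.12 on OSK day 7. The processed pseudogene Rps2-ps13 had 0 counts at both end points and 0 to 55.7 in the others. At least 10% of transcript sequence was shared with other genes in 16 of 46 members, against 10 of the 93, and at least 50% in 7 against 1. For these 7 (Rps2-ps13, Rex2, Zfp600, Xlr3c, Zfp534, AC182748.1 and Xlr3b) a low share of mESC and the change of RSEM version and build cannot be told apart.

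The promoters are shown because the chromosome 4 genes below share sequence there, and because vitamin C acts on enzymes that remove DNA methylation. RefSeq (GRCm38.p6, the mm10 assembly) gave a promoter for 29 of 46 members, of which the 150 bases before the start are printed for 7, on the gene's strand, with CpG pairs in capitals. Rex2, Zfp600 and Zfp534 are the cluster on chromosome 4, Nodal, Crxos1 and Tex19.1 are late risers, and Galnt6 stayed near 0.
Rex2 (chr4:147021700-147021849, plus strand): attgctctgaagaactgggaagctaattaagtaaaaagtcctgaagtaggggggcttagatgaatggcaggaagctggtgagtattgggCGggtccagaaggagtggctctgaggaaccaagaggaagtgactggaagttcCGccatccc
Zfp600 (chr4:146156677-146156826, plus strand): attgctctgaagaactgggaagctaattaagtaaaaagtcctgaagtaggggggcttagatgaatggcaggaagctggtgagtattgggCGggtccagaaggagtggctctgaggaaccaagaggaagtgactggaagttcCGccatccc
Zfp534 (chr4:147702632-147702781, minus strand): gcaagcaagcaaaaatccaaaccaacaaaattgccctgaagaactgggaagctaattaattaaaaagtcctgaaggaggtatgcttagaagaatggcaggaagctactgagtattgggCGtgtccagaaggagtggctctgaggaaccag
Nodal (chr10:61417822-61417971, plus strand): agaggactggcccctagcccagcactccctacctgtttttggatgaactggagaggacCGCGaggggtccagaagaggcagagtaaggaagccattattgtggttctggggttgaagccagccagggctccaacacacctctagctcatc
Crxos1 (chr7:15882467-15882616, plus strand): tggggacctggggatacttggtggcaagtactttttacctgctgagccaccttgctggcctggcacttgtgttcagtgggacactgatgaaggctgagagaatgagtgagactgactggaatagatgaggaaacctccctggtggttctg
Tex19.1 (chr11:121145993-121146142, plus strand): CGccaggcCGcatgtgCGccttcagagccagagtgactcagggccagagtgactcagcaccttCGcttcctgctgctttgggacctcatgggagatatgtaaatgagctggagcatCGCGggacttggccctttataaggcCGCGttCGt
Galnt6 (chr15:100729377-100729526, minus strand): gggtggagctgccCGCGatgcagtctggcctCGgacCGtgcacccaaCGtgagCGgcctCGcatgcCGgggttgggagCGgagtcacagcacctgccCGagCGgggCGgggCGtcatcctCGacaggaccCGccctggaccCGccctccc
The Rex2 and Zfp600 stretches were identical over 150 bases, and Rex2 and Zfp534 matched at 110 of 121 aligned bases. These 3 hold 2, 2 and 1 CpG pairs, Crxos1 holds 0 and Galnt6 holds 16.

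Over the 300 bases from 250 before to 50 after the start, members' promoters were poor in CpG. The observed over expected CpG ratio had a median of 0.485 in 29 members, 0.661 in 61 genes past the limit and 0.773 in 8799 genes of the series table. It was at least 0.6 in 12 of 29 members (41.4%), against 57.4% and 73.9%. The lower ratio was thus shared by both groups of stem cell genes relative to all genes. On either strand, the octamer ATGCAAAT occurred in 0 of 29 members and 1.34% of all promoters, and the CACCC box CCACACCC in 1 and 3.83%. The E-box CACGTG occurred in 3 (Rbmxl2, Sh3tc1 and Sorl1) and 10.5%, and the cAMP response element TGACGTCA in 0 and 3.28%. These motifs were searched only as exact letters.

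Tests used the libraries that chose no member. For OSK against GFP on days 1, 3 and 5, which asks what the factors do beyond transfection, 23 of 46 members had enough counts, and edgeR's quasi-likelihood test called 5 higher and 0 lower at an adjusted p under 0.05. Over all 12640 genes tested, 13.4% were called higher and 9.64% lower, and a filter on low counts left the other 23 members untested, so the count says nothing about the 46 as a set. Bend4, with counts of 214, 100 and 190 in OSK and 62, 12.01 and 7 in GFP, was higher by 2.56 on the log2 scale (SE 0.46, adjusted p = 0.0258, edgeR). Map7, a microtubule protein gene with 11, 17 and 55 counts in OSK and 4, 1 and 4 in GFP, was higher by 2.40 (SE 0.58, adjusted p = 0.0475, edgeR), a call lost without the filter on low counts and by limma. It passed that filter only through OSK, so no call of lower was open to it. Zfp534, AC182748.1 and RP24-547D11.3 were higher by 1.25, 1.08 and 1.01, the last not called without the filter. No member was called without day 3 or without day 5, and 9 were called higher and 2 lower without day 1. Within this comparison the lowest of 5 GC groups of genes had a median difference of 0.32 and the highest of -0.21, and with that trend removed Zfp534 (0.66) and RP24-547D11.3 (0.81) were no longer called.

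The 3 omission arms of OSK were set against the control at the 2 days they share. Against GFP on days 3 and 7, 34 members had enough counts, and 10 were called higher and 1 lower, where 30.3% and 26.1% of 14217 genes were. The count of members called higher was near the share of all genes. Nodal had 4, 5 and 2 counts on day 3 and 24, 39 and 18 on day 7 without bFGF, vitamin C and GSK3 inhibitors and 0 in GFP on both days, where 0 counts allow up to 0.331 and 0.238 CPM. It was called higher, but a fitted fold against 0 counts is no bound and is not given, and its day 3 counts were near that limit. Bend4 was higher by 3.24 (SE 0.37, adjusted p = 0.000166, edgeR), and its 6 omission libraries (2.34 to 3.86 TPM) did not overlap with GFP (0.17 and 0.40). Erdr1, Map7, Caps2, AC162449.1, Sh3tc1, Dnajc6 and Zfp534 were higher by 1.72, 2.43, 1.1, 1.19, 2.34, 1.82 and 0.68, with GFP at 1 to 12 counts for Map7 and 1 to 4 for Sh3tc1 and Dnajc6. Crxos1 was also called higher, from 0 and 1 counts in GFP to 0 to 63 in the omission arms, and limma did not call it. Nodal, Crxos1, Sh3tc1 and Dnajc6 held at most 4 counts in GFP and passed the filter on low counts only through the omission arms. No call of lower was open to these genes, so their calls add little to the counts themselves. Fabp3 was lower by 1.49 on the log2 scale, a fitted value of -1.49 (SE 0.27, adjusted p = 0.00203, edgeR). Zfp534 changed direction to -0.17 without the arm lacking vitamin C, and 6 members were then called higher and 2 lower; without the arm lacking GSK3 inhibitors 2 were called lower. The omissions and GFP lie in different Rpsa-ps10 sets, so arm and set cannot be told apart here.

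The series asks what vitamin C, a cofactor of dioxygenases that act on DNA and histone methylation, does to the transcriptome. In OSK without vitamin C against the other 2 omission arms on days 3 and 7, 8 of 34 tested members were called higher and 0 lower, where 10.7% and 3.24% of all genes were. Zfp534 had 31.4 and 93.2 TPM without vitamin C, 5.86 and 12.9 without bFGF, and 6.43 and 14.0 without GSK3 inhibitors. Both libraries without vitamin C lay above all 4 others, at a difference of 2.51 (SE 0.17, adjusted p = 0.00185, edgeR). In complete OSK medium the level was 14.5 TPM on day 3 and 80.0 on day 7. Rex2, Zfp600, Zfp229, AC162449.1, RP24-547D11.3, Caps2 and AC182748.1 were higher by 2.15, 2.45, 1.47, 1.45, 1.17, 1.17 and 1.13. The arms compared lack bFGF or GSK3 inhibitors, so a gain without vitamin C and a loss in those arms cannot be told apart. On days 3 and 7 Rex2 had 3.18 and 8.69 TPM in complete OSK medium and 3.11 and 7.11 without vitamin C. Zfp600 had 0.97 and 5.97 in complete medium and 2.23 and 9.33 without vitamin C. Complete OSK lies in the other Rpsa-ps10 set, and this was not tested.

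Several of the 8 genes are poor in GC, and GC moved with this comparison. Their transcripts held 34.9% to 49.0% GC, against a median of 50.7% over the series table, and Zfp534, Zfp600 and Rex2 were in its lowest 2%, while AC182748.1, Zfp229 and AC162449.1 lay nearer its middle. The lowest of 5 GC groups of all tested genes had a median difference of 0.66 and the highest of -0.22. With each library's GC trend removed, Zfp229 (1.36) and AC162449.1 (1.28) were still called, and Zfp534, Rex2, Zfp600, Caps2, RP24-547D11.3 and AC182748.1 came to 0.85, 0.95, 1.21, 0.31, 0.73 and 1.03 and were not. All 4 tested Y-linked genes were also higher without vitamin C (median 1.64), Ddx3y standing at 60.7 and 76.3 CPM there and at 6.81 to 41.0 in the other 4. Their part in the result was not tested. Without the arm lacking GSK3 inhibitors 1 member was called.

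**Figure D4:**
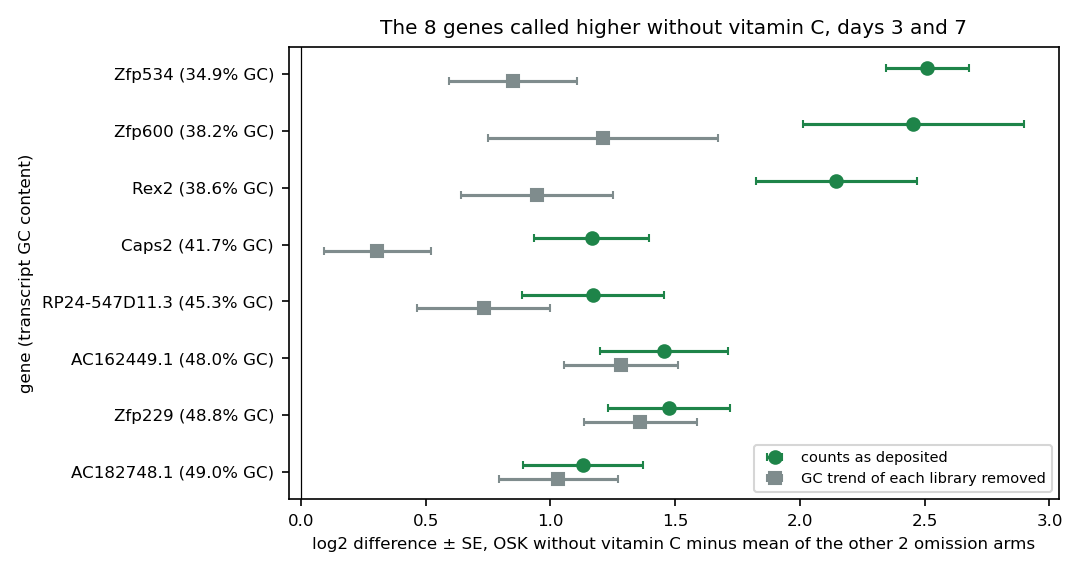
Fitted log2 difference (± SE) between OSK without vitamin C and the mean of the other 2 omission arms for the 8 members called higher, ordered by transcript GC content, from the deposited counts (circles) and with each library's GC trend removed (squares). Zfp534, Zfp600 and Rex2 move from 2.51, 2.45 and 2.15 to 0.85, 1.21 and 0.95, while AC162449.1, Zfp229 and AC182748.1 move by less than 0.2; only AC162449.1 and Zfp229 are still called.

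Slopes over days left out the end points. In OvSvK, days 0 to 3, 1 of 29 tested members was called rising and 0 falling, where 1.81% and 2.24% of 13450 genes were. It was Inpp5d, with 8, 26, 47 and 127 counts, at 1.08 log2 units per day (SE 0.22, adjusted p = 0.0281, edgeR), and leaving out any 1 OvSvK day ended the call. With the GC trend removed its slope was 1.105. In OSK, days 0 to 5, 10 members were called rising and 4 falling, where 20.1% and 21.8% of genes were. Zfp229 (0.91), Zfp534 (0.84), RP24-547D11.3 (0.58), Cd84 (0.59), AC182748.1 (0.69) and Camk2b (0.47) had the smallest adjusted p among risers. Galnt6, Sh3tc1 and Inpp5d were among those falling, with fitted slopes of -0.73, -0.41 and -0.36 log2 units per day. Without OSK day 0 no member was called in either direction. OSK day 0 also lies in a different Rpsa-ps10 set from OSK days 1, 3 and 5, so day 0 and library set cannot be told apart. The lowest GC group had a median slope of 0.38 and the highest of -0.27 in OSK, and with that trend removed 4 rose and 2 fell.

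The last test set the activator-fused factors beside plain OSK at the 3 matched days before the end points, 0, 1 and 3. Of 27 tested members 0 were called in either direction by edgeR, where 0% of 12910 genes were called higher and 0% lower. At an unadjusted p under 0.05, 7 were higher and 1 lower, and DESeq2 called 7 higher. Zfp534 differed by 2.12 (SE 0.39, adjusted p = 0.0546, edgeR) and Caps2 by 2.80 (SE 0.62, adjusted p = 0.0662, edgeR). Without day 0, 8 members were called higher and without day 3, 5, and OvSvK and OSK days 1 and 3 lie in different Rpsa-ps10 sets, so factor set and library set cannot be told apart. Xist stood at 139, 760 and 973 CPM in OvSvK and at 2.51, 18.2 and 71.3 in OSK on these days; its part was not tested. The lowest GC group stood at 0.89 and the highest at -0.36.

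Lists of related genes give the setting of these results. Of 34 epithelial adhesion and junction genes, 0 are members and 6 are past the limit, and 28 of 31 tested were higher in the omission arms than in GFP. A list of 45 genes made for pluripotency transcription factors, 37 of them in the series table, holds 7 genes past the limit and 2 members. These members, Rex2 and Zfp600, are the KRAB zinc finger genes described above, and their place on the list does not make them core pluripotency factors. The list leaves out Pou5f1, Sox2, Nanog, Esrrb and Zfp42, which are also past the limit. Pou5f1 and Sox2 encode transfected factors, so their levels may include delivered RNA. In the same comparison the list had 18 of 31 tested higher and 1 lower. For DNA methylation and chromatin genes it was 18 of 26 higher and 1 lower, with 0 members. These counts stand beside 30.3% of all genes higher and 26.1% lower. Germ line genes had 6 of 17 tested higher and 2 lower, and signalling genes 31 of 44 higher and 12 lower. None of the endoderm, primitive streak, imprinted or Y-linked lists holds a member, though Erdr1, which is not on the Y-linked list, lies on chromosome Y. Of these lists only 10, 5, 26 and 6 genes are in the series table. Since 46 of its 12897 genes are members, a count of 0 says little for any list here.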

How the data were processed

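RNA was measured in 22 samples with TruSeq libraries, per the labels' protocols. For 20 libraries the deposited tables give RSEM expected counts and TPM (1.2.4, mm10), and for all 22 samples a series table of whole-number values, read here as a score, was deposited; it is named CPM by the authors, but its columns share a median of 374. The sources used here give no aligner or strandedness. Members, lists and tests were chosen with earlier results of these data known. Shares of mESC come from the score, levels from TPM. Expected counts were rounded, filtered (filterByExpr, arm as group), scaled by TMM and tested with edgeR 4.0.16 (R 4.3.3) quasi-likelihood fits, with day as a block or a line per arm, with 2 to 6 residual degrees of freedom and Benjamini-Hochberg adjustment over all genes at 0.05. The fits were tested on simulated data. Alternatives were RLE, DESeq2 1.42.0, no filter, limma 3.58.1 on log2(TPM + 1), libraries left out and, chosen after seeing the data, a loess trend on transcript GC removed per library. Named members were the 12 highest in mESC, the 10 with the highest share in a library that chose no member, up to 6 per direction and test, up to 4 per list, and 5 on either side of the limit. Others are given by role, after their values were seen. Poisson limits cover counting error only. Shared sequence is the percent of 50-base runs found in other GENCODE vM21 genes. The values of 1 member are not reported here, though it stays in the counts and medians.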

Additional observations from a re-analysis of the deposited data

How the results depend on the processing

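Without replicates, these results rest on single libraries. The rule gave 46 members, 70 with end points at up to 1/4 of mESC, 23 at 1/16, 81 with an mESC score of 500, 17 with 2000, and 4 with TPM under 1 at both end points. RLE size factors changed no count of calls by over 1.5 times.

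For OSK against GFP, leaving out a day gave 0 to 9 members higher and 0 to 2 lower, and 446 to 3929 genes higher and 175 to 3552 lower. DESeq2 called 1 member lower, and 3 were higher with the GC trend removed. For the omission arms against GFP, leaving out an arm gave 6 to 9 members higher and 1 to 2 lower, with Zfp534 at -0.17 to 1.13 (lowest without the arm lacking vitamin C). Without vitamin C against the other 2 omission arms, leaving out an arm gave 1 to 6 members and 46 to 1165 genes higher, and 48 to 432 genes lower; DESeq2 called 803 genes lower, and the GC trend removed left 2 members and 284 genes higher.

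For the OvSvK slope, members rising numbered 6 by DESeq2, 3 unfiltered, 8 by limma, 2 with GC removed and 3 without OSK day 0 and GFP day 1 (1 falling). Genes rising numbered 736, 397, 678, 450 and 659, and genes falling 805 by DESeq2, 194 by limma, 906 with GC removed and 1104 without those 2 libraries. Leaving out a day gave 0 to 1 members and 0 to 131 genes rising, and 0 to 251 falling. For the OSK slope, 4 members and 1692 genes rose and 2 members fell with GC removed, and 1 member and 876 genes fell by limma. Without OSK day 0 and GFP day 1, 0 members rose, 0 fell, and 105 and 106 genes rose and fell. Leaving out a day gave 0 to 10 members and 49 to 3463 genes rising, and 0 to 4 members and 76 to 3378 genes falling.

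For OvSvK against OSK, 7 members were higher by DESeq2 and 2 unfiltered, with 1334, 825 and, GC removed, 115 genes higher and 453, 186 and 78 lower. Leaving out a day gave 0 to 8 members and 16 to 1493 genes higher and 1 to 443 lower. The cause of these changes was not tested. Arms were paired by day in the fits; no fit with replicate numbers was made, since the labels carry none.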
